A study of Mus musculus with 9 samples.

Results

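Broad domains of acetylated lysine 27 of histone H3 (H3K27ac) in mouse granulosa cells are described here, with the peaks of the glucocorticoid receptor (GR) that lie in them. The domains were chosen by their measured width: every H3K27ac peak of 3000 bp or more on chromosomes 1 to 19 and X of the 1 H3K27ac library was taken. The rule selected 1351 of 37453 peaks, or 3.61%. Width is therefore given as a description with no test, and GR, which the rule did not use, is compared between widths, times and places.

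The data are peak lists from chromatin immunoprecipitation followed by sequencing (ChIP-seq) of granulosa cells, which line the follicle and surround the oocyte. All libraries used here came from wildtype CBA x C57BL/6 F1 mice aged 21 days, whose ovaries were punctured to release the cells. Equine chorionic gonadotropin (eCG, PMSG in some labels) was given to every mouse at 5 IU and acts like follicle-stimulating hormone (FSH). After 44 h the 0 h mice were killed, and the 6 h mice got 5 IU of human chorionic gonadotropin (hCG), which acts like luteinising hormone (LH), and were killed 6 h after it. GR was profiled in 2 libraries per time, and H3K27ac in 1 library from the 0 h mice. The other 4 of the 9 samples were not analysed here. Acetylation at 6 h is not known from these lists, and GR at 6 h was set on the 0 h domains. GR at 6 h without hCG is not in the groups compared, so hCG, its injection and the later time cannot be told apart. Each library is a bulk preparation in which fewer cells with a bound site and less binding per cell cannot be told apart. The labels do not say that replicates came from separate mice, so the spread between libraries may be technical.

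H3K27ac marks active promoters and enhancers. Long unbroken stretches of it are known to lie at genes that are strongly expressed in a cell type, and clusters of such stretches are often called super-enhancers. GR is a nuclear receptor that binds DNA when it carries corticosterone or cortisol, either at its own palindromic element or through other bound factors, and it mostly binds chromatin that is already open. In the follicle, FSH drives granulosa cells to grow and make oestradiol, and the LH surge turns them towards ovulation and the making of progesterone.

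The promoters below are shown because they span the patterns found in the domains. Each is the 250 bases before a RefSeq start site in assembly GRCm38.p6, whose coordinates are those of mm10, printed 5′ to 3′ on the gene's strand. Capitals mark matches on either strand to GGGCGG, the GC box of Sp factors, or to AGAACA, the 6 bases that make up one side of the GR palindrome. The genes were picked after their values were seen. Nppc (chr1:86670574-86670823, minus strand) encodes the C-type natriuretic peptide precursor that keeps the oocyte in meiotic arrest. Adamts1 (chr16:85803114-85803363, minus strand) encodes a protease of the ovulating follicle. Per1 (chr11:69098699-69098948, plus strand) is a clock gene and a known GR target. Foxl2 (chr9:98955357-98955606, plus strand) encodes a forkhead factor that keeps granulosa identity. These 4 windows overlapped a GR peak in all 4 lists. Inhbb (chr1:119422249-119422498, minus strand), which encodes the βB subunit of inhibin and activin, overlapped GR peaks in both 0 h lists and in neither 6 h list. Inhba (chr13:16011601-16011850, plus strand), which encodes the βA subunit, and Lhcgr (chr17:88792015-88792264, minus strand), which encodes the LH receptor, overlapped none although GR peaks lay elsewhere in their domains.
Nppc: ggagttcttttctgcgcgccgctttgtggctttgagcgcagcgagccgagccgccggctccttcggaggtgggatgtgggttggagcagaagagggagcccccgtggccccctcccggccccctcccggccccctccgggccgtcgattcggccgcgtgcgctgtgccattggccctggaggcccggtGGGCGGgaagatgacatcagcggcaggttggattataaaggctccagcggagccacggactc
Adamts1: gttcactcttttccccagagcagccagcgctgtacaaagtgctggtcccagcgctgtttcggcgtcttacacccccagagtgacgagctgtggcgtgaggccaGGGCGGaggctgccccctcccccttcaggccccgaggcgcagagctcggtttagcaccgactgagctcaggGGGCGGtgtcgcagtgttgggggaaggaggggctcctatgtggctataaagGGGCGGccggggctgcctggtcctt
Per1: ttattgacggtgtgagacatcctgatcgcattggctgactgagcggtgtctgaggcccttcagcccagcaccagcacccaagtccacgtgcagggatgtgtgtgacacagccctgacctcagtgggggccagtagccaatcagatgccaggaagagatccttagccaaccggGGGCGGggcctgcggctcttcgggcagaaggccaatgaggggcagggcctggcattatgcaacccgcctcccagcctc
Foxl2: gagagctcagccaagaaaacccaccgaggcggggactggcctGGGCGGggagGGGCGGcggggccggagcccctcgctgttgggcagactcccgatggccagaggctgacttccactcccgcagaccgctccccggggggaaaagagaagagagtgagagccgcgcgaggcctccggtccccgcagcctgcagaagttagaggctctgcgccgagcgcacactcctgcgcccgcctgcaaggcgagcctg
Inhbb: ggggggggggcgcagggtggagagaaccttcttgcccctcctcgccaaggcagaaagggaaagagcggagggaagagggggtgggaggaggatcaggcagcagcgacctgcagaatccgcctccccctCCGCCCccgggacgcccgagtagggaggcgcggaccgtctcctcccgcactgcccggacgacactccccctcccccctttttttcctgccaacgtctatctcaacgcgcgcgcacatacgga
Inhba: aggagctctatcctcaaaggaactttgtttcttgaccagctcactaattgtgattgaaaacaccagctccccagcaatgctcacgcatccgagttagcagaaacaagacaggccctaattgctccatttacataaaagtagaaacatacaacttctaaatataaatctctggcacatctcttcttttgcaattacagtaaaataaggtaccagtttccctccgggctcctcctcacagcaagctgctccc
Lhcgr: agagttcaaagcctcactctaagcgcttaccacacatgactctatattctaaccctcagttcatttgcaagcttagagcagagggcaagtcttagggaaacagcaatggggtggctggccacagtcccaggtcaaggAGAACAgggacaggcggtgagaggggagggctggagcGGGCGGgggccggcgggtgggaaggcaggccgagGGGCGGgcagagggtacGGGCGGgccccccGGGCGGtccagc

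The 1351 domains covered 6.11 Mb, which was 17.0% of the 36.0 Mb under all H3K27ac peaks. Their median width was 3877 bp (quartiles 3332.5 and 4846 bp), and that of the narrower peaks was 609 bp. Most domains sat near the lower limit: 1047 measured 3000 to 4999 bp, 270 measured 5000 to 9999 bp and 34 measured 10000 bp or more. Just inside the limit lay domains at Ankrd13a (3001 bp), Bcor (3000 bp) and another region of Greb1 (3000 bp), none with a GR peak in any list. Just outside it lay peaks of 2998 bp at 21366 bp from 1700001O22Rik, 2997 bp at Sox12 and 2997 bp at Trappc9. The first of these and Sox12 each held 1 GR peak in 3 lists, and Trappc9 held none. Domains came in groups, with 310 of them within 10 kb of another. A domain is what the peak caller left unbroken: 10728 gaps between neighbouring H3K27ac peaks were under 1000 bp. When peaks were joined across such gaps, 2406 regions reached 3000 bp.

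The widest domain lay over Greb1, an oestrogen-responsive gene, and measured 32326 bp (chr12:16729998-16762323, start site inside). Next came St3gal4, a sialyltransferase gene (22951 bp), and Nr5a2 (19412 bp), which encodes the orphan nuclear receptor LRH-1 needed for ovulation and luteinisation. Domains over Synpo, whose product binds actin (17878 bp), and Inhba (16827 bp) followed. The domain of Inhbb measured 13063 bp. A domain of 12723 bp covered the start sites of Inha, which encodes the α subunit of inhibin, and its neighbour Obsl1. All 3 inhibin subunit genes thus had domains above 10000 bp. Gja1, the gene of the gap junction protein connexin 43, had 13521 bp, and Sulf2, which encodes a heparan sulfate sulfatase, had domains of 14351 and 13852 bp. Msi2, an RNA-binding protein gene, had 10 separate domains, the most of any gene, and Bmpr1b, a BMP receptor gene, had 9.

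Of 1308 domains on chromosomes with start sites in the table used, 344 (26.3%) held the start site of a protein-coding gene, 646 (49.4%) lay in or across a gene without one, and 318 (24.3%) lay outside genes. The same shares of narrower peaks were 16.9%, 54.3% and 28.8%. The start site share is a lower count, since the table holds sites of 17274 of 21631 genes, and the 43 domains on chromosome 18 were not classed.

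Many genes of granulosa cells and of the FSH response held these domains. Of all 21631 protein-coding genes, 879 overlapped a broad domain (4.06%). Granulosa identity genes did so in 12 of 17 cases: Nr5a2, Inhbb, Inha, Gata4, Foxl2, Gata6, Hsd17b1, Fst, Nr5a1, Esr2, Cyp19a1 and Fshr. The other 5 genes of that list had only narrower H3K27ac peaks. The FSH response list also reached 12 of 17, with Greb1, Inhba, Gja1, Prkar2b, Bmpr1b, Lhcgr, Igf1, Igf1r, Nppc, Vegfa, Hif1a and Ccnd2. At a width limit of 5000 bp the granulosa list kept 10 of 17 and the FSH list 6 of 17. No test was made, since lists and domains were chosen with earlier results of these data in view. Long genes have more room for a domain, and counting instead start sites within 1 kb of a domain gave 7 of 9 granulosa genes and 11 of 15 FSH genes with a start site in the table, beside 402 of 17274 genes (2.33%).

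Genes of later stages also held domains before hCG. The ovulatory LH response list had 6 of 23 genes: Fosl2, Rgs2, Pparg, Cebpb, Adamts1 and Runx2. The luteinisation and steroid synthesis list had 6 of 20: Hsd3b1, Fdxr, Fdx1, Cyp11a1, Scarb1 and Prlr. Early transcription factors had 6 of 20, namely Fosl2, Ier2, Jund, Jun, Fos and Junb. Glucocorticoid response genes had 4 of 23 (Fkbp5, Per1, Bcl6, Angptl4), and genes that handle the hormone or its receptor 2 of 12, among them Nrip1. The circadian clock list had Per1, Nr1d1 and Dbp of 18 genes. TGF-beta and BMP signalling had 4 of 20 (Id3, Bmpr2, Smad3, Id1), adhesion and cytoskeleton genes 4 of 20 (Lama1, Actb, Itgav, Sparc), and housekeeping genes 3 of 15, among them Gapdh and Ywhaz. Among markers of other ovarian cells, 2 genes held a domain. Oocyte markers had 0 of 14 and endothelial markers 0 of 13. Theca markers had 1 of 11, which was Nr2f2 (3293 bp), and leukocyte markers 1 of 13, which was Fcer1g (3945 bp).

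**Figure D1:**
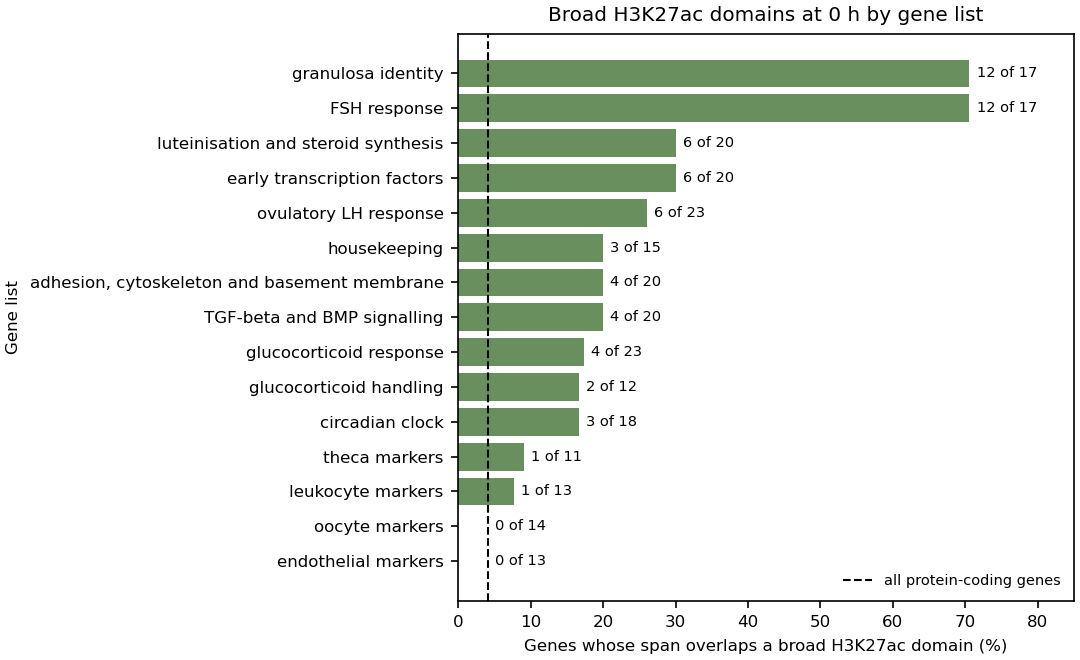
Share of the genes of each list (rows) whose span overlaps a broad H3K27ac domain at 0 h (x axis, percent), with the count beside each bar and a dashed line at the share of all protein-coding genes (4.06%). Granulosa identity and FSH response genes stand at 12 of 17 each, and oocyte and endothelial markers at 0.

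Most domains held GR in each 0 h library. In the 0 h libraries, 837 domains (62.0%) and 886 domains (65.6%) overlapped a GR peak by at least 1 bp. In the 6 h libraries the counts were 752 (55.7%) and 587 (43.4%). Both 6 h values lay below both 0 h values. The mean went from 63.8% ± 2.56 (SD, n = 2) to 49.6% ± 8.64 (SD, n = 2), a difference of -14.2 percentage points (exact permutation p = 0.333, two-sided). With 2 libraries against 2, 0.333 is the smallest p this test can give, so no comparison of times here can pass a threshold of 0.05. Without 6 h replicate 2 the difference was -8.11 points. The share of narrower H3K27ac peaks with GR was 23.7% and 22.3% at 0 h and 28.8% and 17.8% at 6 h, so the 6 h libraries lay on either side of the 0 h ones (23.0% ± 0.973 and 23.3% ± 7.79, SD, n = 2 each).

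The share of GR peaks that lay in broad domains also differed between times. It was 11.97% and 13.40% of the 10115 and 9724 peaks at 0 h, and 8.45% and 8.62% of the 14732 and 10587 peaks at 6 h. The groups did not overlap, with 12.7% ± 1.01 at 0 h and 8.54% ± 0.122 at 6 h (SD, n = 2 each), and the difference was -4.15 points (exact permutation p = 0.333). The numbers behind these shares overlapped: 1211 and 1303 peaks at 0 h, 1245 and 913 at 6 h (difference -178, exact permutation p = 0.667). That difference was -12 without 6 h replicate 2 and -344 without 6 h replicate 1. Meanwhile 545 and 528 GR peaks at 0 h and 3248 and 3103 at 6 h lay outside H3K27ac, so the denominator held more peaks without acetylation. Among GR peaks that overlapped any H3K27ac, the share in broad domains was 12.7%, 14.2%, 10.8% and 12.2% in the order 0 h replicates 1 and 2, then 6 h replicates 1 and 2. That difference was smaller, at -1.89 points (exact permutation p = 0.333).

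Per length, GR summits were fewer in broad domains than in narrower peaks. There were 1.96, 2.11, 2.01 and 1.49 summits per 10 kb of broad domain in the 4 libraries, in the same order, and 2.59, 2.45, 3.11 and 2.03 per 10 kb of narrower peak. The difference was -0.653 ± 0.323 per 10 kb (SD over 4 libraries) and was negative in 4 of 4 (exact sign-flip permutation p = 0.125, two-sided, the smallest this test can give). Summits were densest in peaks of 1000 to 1999 bp, at 2.58 to 3.72 per 10 kb, and thinnest in peaks under 500 bp, at 0.748 to 1.55. The share of peaks with GR kept rising with width in each library, and in the 34 domains of 10000 bp or more it was 97.1% in both 0 h libraries, 79.4% and 67.6% in the 6 h libraries. The fold enrichment of a GR peak over the caller's background, the authors' own value, barely differed by place. Its median was 7.32, 7.88, 8.02 and 6.89 in broad domains and 7.41, 7.75, 7.92 and 6.70 in narrower peaks (mean difference 0.0847, higher in 3 of 4, exact sign-flip p = 0.25). At a width limit of 5000 bp this difference turned negative (-0.187, exact sign-flip p = 0.125).

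**Figure D2:**
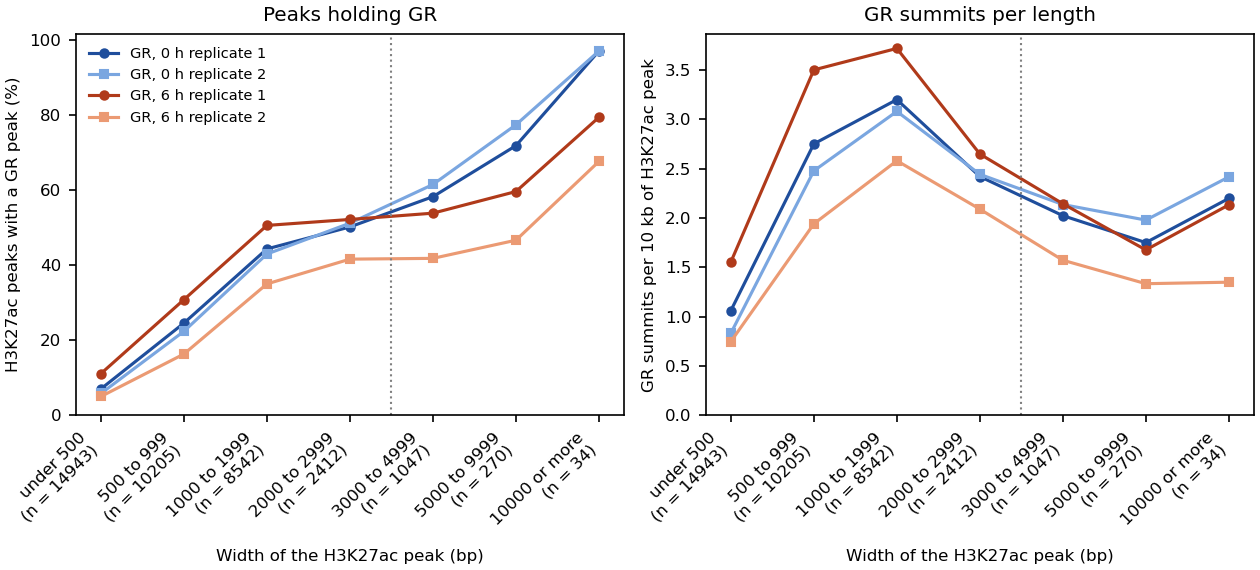
Left, percent of H3K27ac peaks that overlap a GR peak, and right, GR summits per 10 kb of H3K27ac peak, by width of the H3K27ac peak in bp (x axis, number of peaks in brackets), 1 line per GR library, with the 3000 bp limit dotted. The share with GR rises with width in all 4 libraries, while summits per length are highest at 1000 to 1999 bp.

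Domains at start sites held GR most often. Of the 344 with a start site, 89.2% and 88.1% held a GR peak at 0 h and 87.8% and 75.3% at 6 h. In the 646 within genes the shares were 50.3% and 56.3%, then 44.4% and 33.1%. In the 318 outside genes they were 56.9% and 60.4%, then 44.7% and 32.4%. The difference between times was -7.12 points at start sites, -14.6 within genes and -20.1 outside, each with an exact permutation p of 0.333. Whether these 3 differences differ from each other was not tested.

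Counted over the lists together, 494 domains (36.6%) overlapped a GR peak in all 4, against 13.2% of all H3K27ac peaks. No list had a GR peak in 320 domains (23.7%), against 63.9% of all. A wide region has more room for a peak, and these shares were not adjusted for length. GR was found in both 0 h lists and neither 6 h list in 157 domains (11.6%, against 1.78% of all H3K27ac peaks), and in both 6 h lists and neither 0 h list in 35 (2.59%, against 2.73%). The remaining 345 had other sets of calls. More GR peaks in both 0 h lists than in either 6 h list were found in 195 domains (14.4%, against 1.98%), and the reverse in 95 (7.03%, against 3.03%). Leaving out 1 library at a time changed the 2 time-restricted counts to 162 to 270 domains only at 0 h and 41 to 71 only at 6 h, and the first stayed the larger each time. The 270 came without 6 h replicate 1, and the 71 without 6 h replicate 2 and 65 without 0 h replicate 2. The shares of all H3K27ac peaks were not recounted with 1 library left out, so how far the contrasts with them hold is not known. Among GR loci in narrower peaks, those only at 0 h went from 477 to 2116 without 6 h replicate 1.

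Of the 344 domains at start sites, 252 had GR in all 4 lists, 8 only at 0 h and 1 only at 6 h. Of the 646 within genes, 153 had it in all 4, 89 only at 0 h and 24 only at 6 h. Outside genes, 80 of 318 had it in all 4, 53 only at 0 h and 10 only at 6 h. As shares, GR only at 0 h was found in 2.33% of domains at start sites, 13.8% within genes and 16.7% outside. For GR only at 6 h the shares were 0.291%, 3.72% and 3.14%. Broad domains of any kind were mostly away from start sites of the table, which 26.3% of them held. These shares were not set beside the same split of all H3K27ac peaks.

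GR peaks of the 4 lists merged into 18570 loci, of which 1720 lay in broad domains. Loci in all 4 lists made up 577 of them (33.5%, against 27% of all loci), loci only at 0 h 227 (13.2%, against 4.15%) and loci only at 6 h 120 (6.98%, against 15.1%). Broad domains thus held 29.4% of all loci only at 0 h and 4.28% of those only at 6 h, while 60.7% of the latter lay outside H3K27ac. All loci include those outside H3K27ac, of which 1.66% were in all 4 lists. In narrower peaks the share in all 4 lists was 36.0%, above that in broad domains, and per Mb such loci numbered 94.4 in broad domains and 145.7 in narrower peaks. Per Mb, loci only at 6 h numbered 19.6 in broad domains and 32.9 in narrower peaks, a ratio of 0.597. It stayed between 0.544 and 0.675 when any 1 library was left out. An overlap of 1 bp also counts loci whose summit lies outside the H3K27ac peak. The ratio was 0.752 when the summit had to lie inside, and 0.487 with loci merged across gaps of up to 500 bp. Loci only at 0 h numbered 37.1 per Mb in broad domains and 15.95 in narrower peaks, a ratio of 2.33. That ratio rested on the 6 h replicate 1 list, the longest of the 4. Without it the counts were 395 in broad domains and 2116 in narrower peaks, and the ratio was 0.913. Without 0 h replicate 2 it was 1.40, and with lists cut to an equal number of strongest peaks 1.30. The order of the 2 counts within broad domains depended on 6 h replicate 2: without it, loci found at 6 h alone (313) outnumbered those found at 0 h alone (234).

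**Figure D3:**
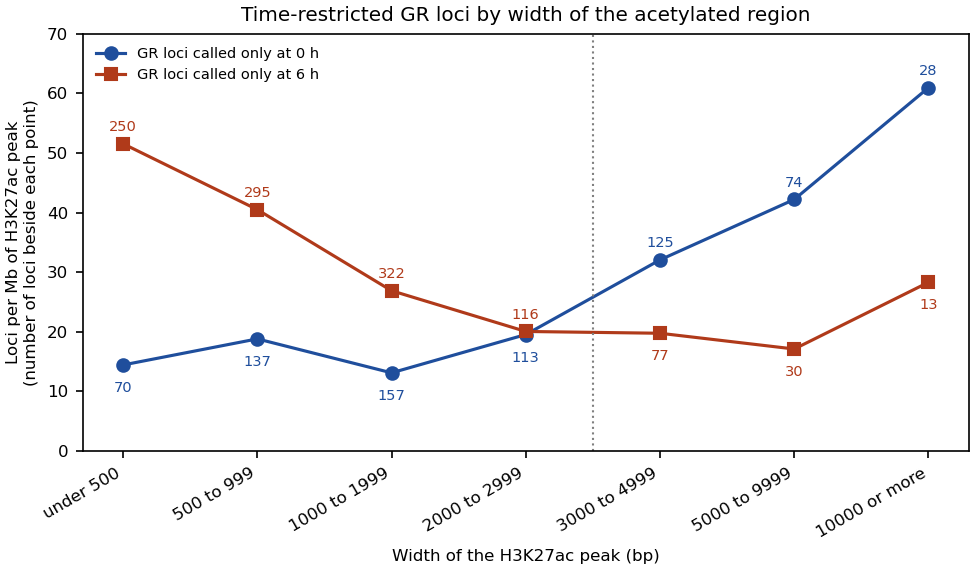
GR loci called only at 0 h (blue circles) or only at 6 h (red squares) per Mb of H3K27ac peak (y axis) by width of the peak in bp (x axis), with the number of loci beside each point and the 3000 bp limit dotted. The 0 h points go from 14.4 per Mb under 500 bp to 61.0 at 10000 bp or more, where 28 loci include 7 from Inhba. Without 6 h replicate 1 they were 47.8 under 500 bp, 95.8 at 500 to 999 bp and 93.6 at 10000 bp or more. The widest peaks then no longer had the highest value. With lists cut to an equal number of strongest peaks, the values at these widths were 27.6, 48.2 and 76.2. The 6 h points go from 51.5 to 17.1 at 5000 to 9999 bp, then 28.3 from 13 loci. Loci are counted by an overlap of 1 bp. With the summit inside the peak, the 6 h value under 500 bp was 23.5 from 114 loci, and that at 500 to 999 bp was 32.1.

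Loci of the 3 kinds differed in place. On chromosomes with start sites, loci in all 4 lists lay a median of 1619 bp from the nearest start site, and 45.6% lay within 1 kb. Loci only at 6 h lay 12986 bp away (6.78% within 1 kb) and loci only at 0 h 34325 bp away (4.57%). Within 500 bp of the edge of their domain lay 5.83% of loci in all 4 lists, 16.1% of loci only at 6 h and 4.11% of loci only at 0 h. Few domains mixed the time-restricted kinds: 205 held a locus only at 0 h, 100 held one only at 6 h, and 6 held both. A locus in all 4 lists stood beside one only at 6 h in 48 domains and beside one only at 0 h in 24. These counts describe loci that share libraries and carry no test.

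The domain of Inhba (chr13:16010358-16027184) showed the largest number of loci only at 0 h. It held 10 GR peaks in each 0 h library, and 2 and 1 at 6 h. Of its 11 loci, 7 were only at 0 h and none was in all 4. At Gja1 (chr10:56376047-56389567) there were 10 and 8 peaks at 0 h, then 4 and 2, with 3 loci only at 0 h. Inhbb (chr1:119412160-119425222) held 3 and 4 peaks at 0 h and none at 6 h. Its strongest peak had a fold enrichment of 7.25 and 8.90 in the 0 h lists. Absence from a 6 h list means that a peak fell short of the limit of the peak caller, which is not the same as no binding.

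Greb1 held 10 and 9 peaks at 0 h and 6 and 4 at 6 h, again with no overlap between times, and of its 11 loci 2 were in all 4 lists. St3gal4 had 4 and 4, then 3 and 1, and Synpo had 3 and 4, then 1 and 0. Nr5a2, by contrast, had 6 and 6 peaks at 0 h and 8 and 3 at 6 h, so its 6 h libraries lay on either side of the 0 h ones. Its 15 loci were the most of any domain, and 1 of them was in all 4 lists. Hao2, an oxidase gene beside Hsd3b1, had 1 and 2 peaks, then 2 and 0.

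**Figure D4:**
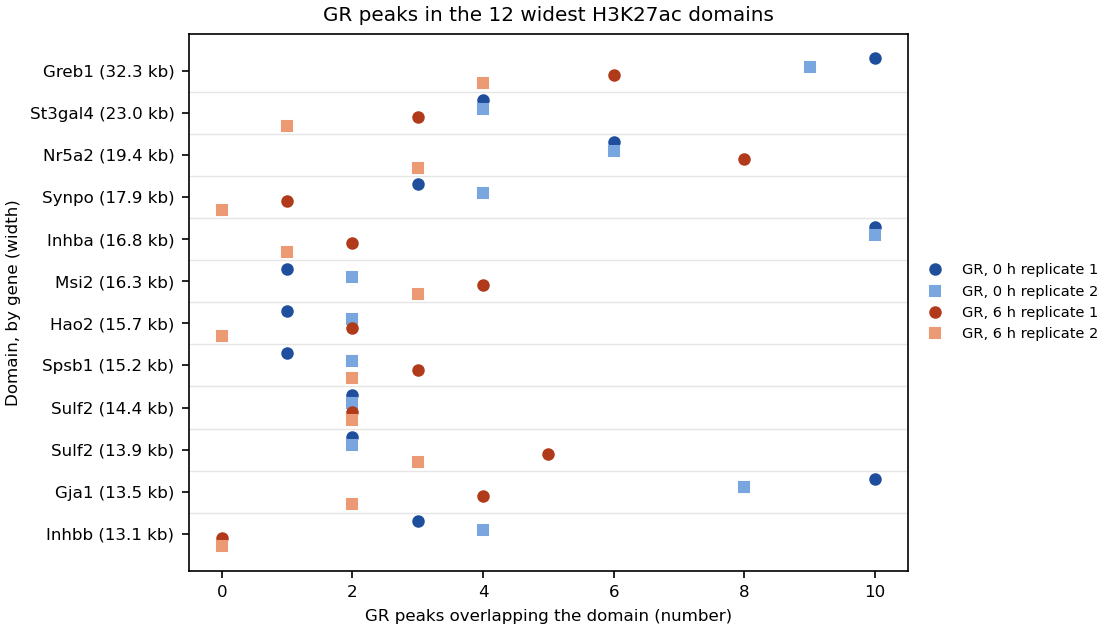
Number of GR peaks (x axis) in each of the 12 widest H3K27ac domains (rows, with width in kb) in the 4 GR libraries (blue 0 h, red 6 h, circles replicate 1, squares replicate 2). Both 0 h counts lie above both 6 h counts at Greb1, St3gal4, Synpo, Inhba, Gja1 and Inhbb, and the reverse holds at Msi2 and 1 of the Sulf2 domains. Among all broad domains these patterns held in 14.4% and 7.03%, without matching for width or number of GR peaks.

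A total of 12 domains tied at 2 loci only at 0 h, among them Greb1, Synpo and Inhbb. Domains with GR at 0 h alone lay also at Fam13a (3 and 3 peaks, none at 6 h, with fold enrichment up to 7.52 and 15.3), Sema5a, a semaphorin gene, Marchf10, a ubiquitin ligase gene, Cradd and Dis3l2 (each 2 and 2 peaks, none at 6 h). Among granulosa identity genes, 4 of 18 domains showed this pattern, beside 11.6% of all broad domains. They lay at Inhbb, at Nr5a1, which encodes steroidogenic factor 1 (2 and 2 peaks, none at 6 h), at Esr2, the oestrogen receptor β gene (1 and 1), and at the start site of Cyp19a1, which encodes aromatase (1 and 1). In the FSH response list 4 of 26 domains did so, namely 3 domains of Bmpr1b and the start site domain of Lhcgr, with 1 and 1 peak each. Among all broad domains the share with this pattern was higher from 5000 bp upwards. It was 10.03% at 3000 to 4999 bp (105 of 1047), 17.04% at 5000 to 9999 bp (46 of 270) and 17.65% at 10000 bp or more (6 of 34). These shares by width were not recounted with a library left out. The counts of both lists were not matched for width, and whether they exceed the share for like widths was not tested. These list genes were picked for naming after their values were seen. Their folds lay on both sides of the medians in broad domains, 7.32 and 7.88 in the 0 h lists: at Cyp19a1 the strongest peak reached 5.80 and 10.4, at Esr2 5.89 and 6.60, at Lhcgr 8.08 and 6.803, and at Nr5a1 8.32 and 13.6.

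Domains of 1 gene did not share 1 pattern. Of the 9 domains of Bmpr1b, 3 had GR only at 0 h, 1 (4111 bp) had it in all 4 lists, 1 over the start site lacked it in 6 h replicate 2 alone, and 4 had none. Esr2 had 4 domains, and those of 5006 and 4848 bp had GR in all 4 lists, unlike the one of 5157 bp with GR at 0 h alone. A domain of 4844 bp inside Lhcgr held 0 and 1 peak at 0 h and 2 and 2 at 6 h, with folds of 7.17 in 0 h replicate 2, then 12.3 and 9.74. Beside its widest domain, Greb1 had one of 4806 bp with 1, 1, 2 and 2 peaks and 1 locus only at 6 h. The 2 kinds of time-restricted loci thus occurred in separate domains of Lhcgr and of Greb1.

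Domains with loci only at 6 h were led by 5 regions with 3 such loci each. The Sulf2 domain over its start site (chr2:166142478-166156329) held 2 and 2 GR peaks at 0 h and 5 and 3 at 6 h. Its strongest peak had a fold enrichment of 6.80 and 6.70 at 0 h and 13.9 and 12.5 at 6 h, each read within its own list. The neighbouring Sulf2 domain of 14351 bp held 2 peaks in each library, and both loci were in all 4 lists. Sox5, a transcription factor gene (3843 bp, chr6:144708914-144712756), held no peak at 0 h and 3 and 3 at 6 h, with folds of 13.2 and 11.6. Capzb, an actin capping protein gene (3176 bp), likewise held none and then 3 and 3, with folds of 14.9 and 15.9. Crispld2, which encodes a secreted protein (5459 bp), held 2 and 1, then 4 and 4. A second domain of Spsb1 (11906 bp) held 1 and 1, then 6 and 3.

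A further 10 domains tied at 2 loci only at 6 h, and the widest 5 of them were at Msi2, Tmem86a, Ephx2, Bcat1 and Btbd16. In Ephx2, the gene of soluble epoxide hydrolase, 2 and 3 peaks at 0 h faced 5 and 5 at 6 h. The strongest peak there had folds of 5.44 and 8.02 in the 0 h lists and 25.1 and 20.5 in the 6 h lists. The widest Msi2 domain (16263 bp) held 1 and 2, then 4 and 3. Folds come from separate lists and show no change by themselves. Among genes of the fixed lists, Rgs2, a regulator of G-protein signalling, had 1 and 1 peak and then 4 and 3, with 2 loci only at 6 h. Cyp11a1, the enzyme that starts steroid synthesis from cholesterol, had 1 and 1, then 2 and 2. Fdxr, which passes it electrons, had 1 and 2, then 3 and 2, so its times overlapped. Genes of other lists also had more peaks at 6 h. Jund had 2 and 2, then 3 and 3, and Sparc had 0 and 1, then 2 and 2, each with 1 locus only at 6 h.

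GR was called at both times in domains of immediate-early and housekeeping genes. Loci in all 4 lists were most numerous at Tnrc18 (4 loci). Another 13 domains tied at 3 such loci each, and the widest 9 of them lay at Fosl2, an AP-1 factor gene, over the long noncoding RNA Malat1, at Tceal9, over the noncoding RNA Neat1, at Cradd, Marcks and Ier2, over Gm52006 with the start site of Zfp36l1, and at Per1. All 6 domains of early transcription factors had GR in all 4 lists, beside 36.6% of all broad domains and 73.3% of those with a start site. All 6 but the one at Ier2 held a start site of the table used, which lacks the sites of some genes. The 3 domains of housekeeping genes and those of Id1, Id3, Smad3 and Actb also had GR in all 4 lists. Fos had 1, 2, 2 and 3 peaks with folds of 21.8, 22.4, 28.9 and 13.5, and Gapdh had 2, 2, 3 and 2 with folds of 14.7, 18.0, 16.1 and 10.9. Adamts1 held 3, 3, 4 and 3 peaks, and Cebpb, a factor gene of ovulation, held 1, 2, 3 and 2.

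By fold rank within each list, the strongest locus in all 4 lists lay in the domain of Per1 (chr11:69095118-69100039), with folds of 42.6 and 44.8 at 0 h and 47.6 and 30.9 at 6 h. The time groups overlapped there. A locus within Fshr, the FSH receptor gene, came next with 27.3, 27.8, 24.0 and 23.8, in a domain of 3063 bp inside the gene, while the 4426 bp domain over the Fshr start site held no GR peak. H1f2, a linker histone gene, Jakmip3 and Rpl10, a ribosomal protein gene, followed. At Jakmip3 the folds were 15.7 and 19.4 at 0 h and 32.1 and 27.9 at 6 h.

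**Figure D5:**
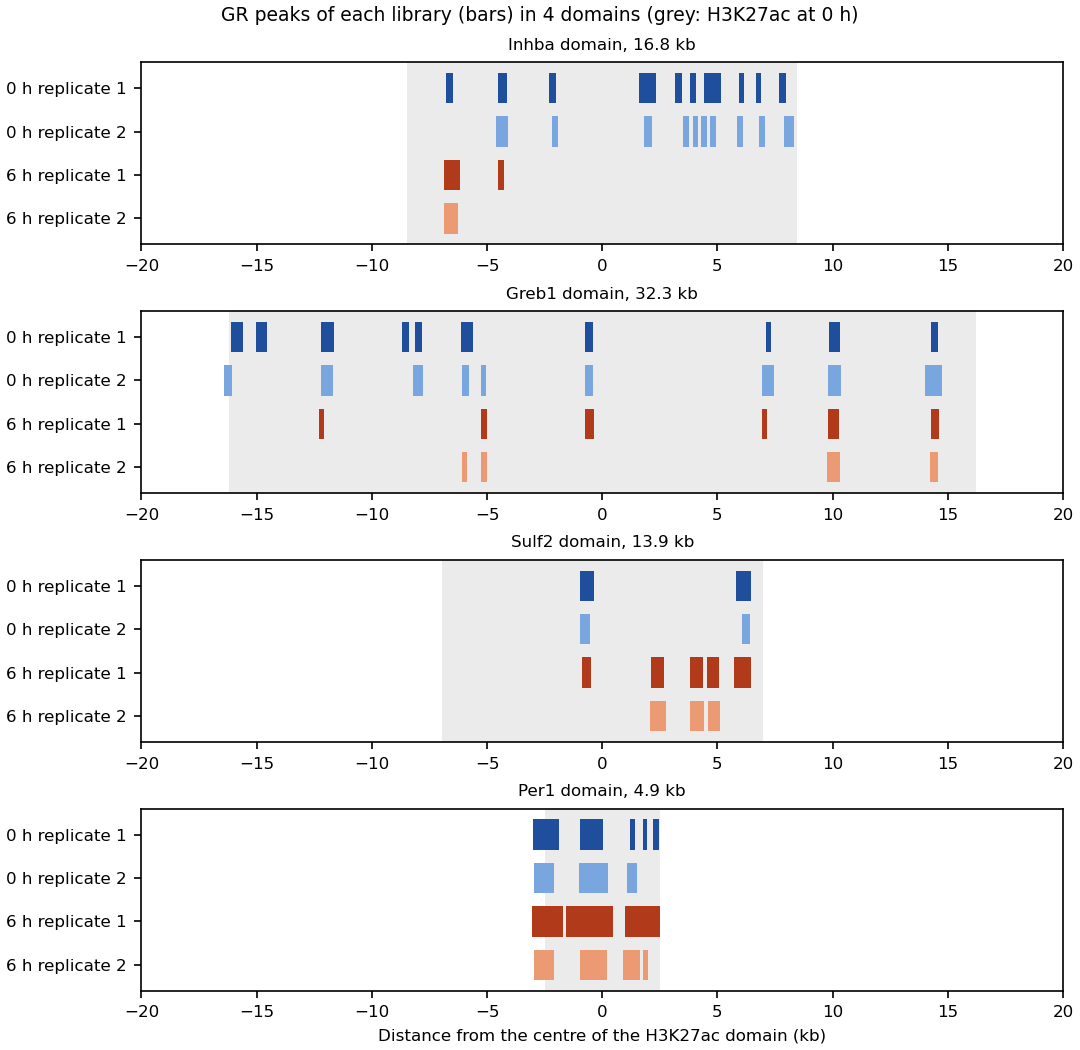
Positions of GR peaks (bars, 1 row per library) in the domains of Inhba, Greb1, Sulf2 (13.9 kb) and Per1, by distance from the centre of the H3K27ac domain in kb (x axis), with the domain in grey. Inhba has 10 bars in each 0 h row and 2 and 1 in the 6 h rows, Sulf2 has 3 loci in the 6 h rows alone, and Per1 has 5, 3, 3 and 4 bars, with 3 loci that all 4 rows share.

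Known glucocorticoid targets were not alike. Beside Per1, Angptl4 (2, 2, 3 and 2 peaks) and Bcl6 (1, 2, 2 and 1) had GR at both times. The wider domain of Fkbp5, a chaperone gene that GR is known to induce, measured 5638 bp, held 1 and 1 peak at 0 h, with folds of 7.91 and 6.40, and none at 6 h. Its other domain (3484 bp, also within the gene) held 1 peak in each list, with folds of 14.8, 12.7, 14.4 and 17.04. The clock genes Nr1d1 and Dbp had GR in every list but 6 h replicate 2, with 2, 2 and 2 and with 3, 3 and 3 peaks.

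The widest domains with no GR peak in any list lay at Tenm4, a teneurin gene (11649 bp), Sufu, a Hedgehog inhibitor gene (9137 bp), Dis3l2 (9040 bp), Socs2, a cytokine signalling inhibitor gene (8964 bp), and Cyrib (8748 bp). None of the 5 held a start site of the table. Without GR too were the domains at the start site of Igf1, which encodes an FSH-supporting growth factor (4788 bp), and at Lama1, a laminin gene (8372 bp). The leukocyte marker domain at Fcer1g also had none, while the theca marker domain at Nr2f2 had 1 peak in each list.

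GR was also counted over promoter windows. Of 21012 windows of 250 bases, 453 from 374 genes lay in broad domains, and 238 of these (52.5%) overlapped a GR peak in all 4 lists. The share was 38.5% in narrower peaks and 2.43% outside H3K27ac. A GR peak was present in 74.8% and 72.2% of the broad windows at 0 h and 78.1% and 56.5% at 6 h, so the times overlapped. In 10 broad windows (2.21%), among them Inhbb, GR was found only at 0 h, and in 6 (1.32%) only at 6 h. The same shares were 1.17% and 0.50% of all windows, and 2.14% and 0.81% of those in narrower peaks.

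The letters of the windows were searched for 9 motifs on both strands. The whole GR palindrome, AGAACA and TGTTCT with 3 bases between them, was in none of the 453 broad windows and in 2 of all 21012. Only exact letters were searched, so these counts do not show whether GR elements that differ from the palindrome were present. AGAACA alone was in 8.61% of broad windows and 13.8% of all, and in 6.72% of the broad windows with GR in all 4 lists and 15.1% of those with GR in none. The GC box GGGCGG was in 57.0% of broad windows, 61.1% of windows in narrower peaks and 43.1% of all. It was in 68.1% of the 238 broad windows with GR in all 4 lists and in 27.4% of the 73 with none. The printed windows of Nppc, Adamts1, Per1, Foxl2 and Inhbb hold 1, 3, 1, 2 and 1 GC boxes and no AGAACA. That of Lhcgr, without GR, holds 4 GC boxes and 1 AGAACA, and that of Inhba holds neither. The CCAAT box (CCAAT) was in 35.8% of broad windows and 35.6% of all, and the NR5A site AAGGTCA in 3.97% and 3.64%. For the GATA site AGATAA the shares were 5.74% and 8.85%, for the AP-1 site TGANTCA 2.87% and 6.18%, for the cAMP element TGACGTCA 1.55% and 1.95%, and for the forkhead site TGTTTAC 3.09% and 2.64%. AGAACA is part of the palindrome, so the 2 counts are not independent. A match describes letters, not a bound site, and most GR loci in broad domains lie outside these windows.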

How the data were processed

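Per the submitters' processing notes, the authors used Bowtie2 2.4.5, MACS2 and build mm10, and they deposited 1 list per library. The deposited GR lists give each peak a score (10 times its −log10 p), a fold enrichment (a ratio over the caller's background), −log10 p and q values and a summit, and all peaks had a −log10 p of 9 or more. The deposited H3K27ac list gives positions only. The caller's settings and the read depth behind each list were not known here, so the precision of a single call is unknown, and a list can be longer without more binding.

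Peaks on chromosomes 1 to 19 and X were used. Overlap meant 1 bp or more. GR peaks of the 4 lists that overlapped were merged into loci. A domain is named by the protein-coding gene it overlaps most, from a RefSeq table of GRCm38.p6 that gives no strand, or by the nearest. Start sites came from a RefSeq promoter table. Genes were named by rule: the 12 widest domains, the 10 with most loci of each kind, list members, the edges of the width limit, the 5 widest without GR and the 5 strongest loci. Others were picked after seeing values. The members and the 15 gene lists were chosen with earlier results of these data known.

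Libraries were compared by exact permutation and sign-flip tests in Python 3.11.15 (numpy 2.4.6, pandas 2.3.3, scipy 1.17.1, matplotlib 3.10.9), and the overlap code was tested on simulated data. Alternatives were other widths, joined peaks, summits, shorter lists, each library left out and other gene windows.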

Additional observations from a re-analysis of the deposited data

How the results depend on the processing

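The -4.15 and -14.2 point differences between times and the density difference of -0.653 kept their sign under every alternative run, as did the count difference of -178. Their sizes did not hold: -14.2 ranged from -20.3 to -8.11 with 1 library left out and was -5.66 with the stronger part of each list, and -178 ranged from -344 to -12 with 1 library left out. Of 156 alternative values for the main results, 117 kept their side or moved by at most 1.5 times, 37 moved further and 2 reversed. The reversals were the fold difference at 5000 bp (-0.187) and the ratio of loci only at 0 h per Mb without 6 h replicate 1. Added after seeing the data were the ratios per Mb of both time-restricted kinds with all their alternatives, removal of the Inhba domain (2.26) among them, and the acetylated denominator. Counts for single gene lists moved by over 1.5 times in 36 of 75 alternatives.

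A width limit of 2000 bp gave 1420 loci in all 4 lists and 236 only at 6 h, with 1309, 113, 253 and 1180 domains where GR was in all 4 lists, restricted to 6 h, restricted to 0 h or absent. A limit of 5000 bp gave 171 loci in all 4, 43 only at 6 h and 102 only at 0 h, with 129, 4, 52 and 36 domains. Joining H3K27ac peaks gave 982 loci in all 4 and 254 only at 6 h, with 841, 96 and 667 domains where GR was in all 4, restricted to 6 h or absent. The stronger part of each list, cut at its median rank, gave 300 loci in all 4 and 111 only at 0 h, with 282, 59, 88 and 600 domains. Leaving out 1 library gave 147 to 313 loci only at 6 h, 234 to 395 only at 0 h, 41 to 71 domains only at 6 h and 162 to 270 only at 0 h. The ratio of loci only at 0 h per Mb was 0.913 to 2.20 without 1 library and 1.30 with equal lists. Genes with a domain numbered 2371 at 2000 bp, 231 at 5000 bp, 1647 with joined peaks, 2369 with 50 kb added to each side and 402 by start site. The cause of these moves was not tested, beyond the numbers of regions and lists that each alternative changes by its construction.

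Replicate numbers are shared between times. Differences between replicates 1 and 2 at 0 h and at 6 h correlated at r = 0.028 over 5012 loci, a description across loci, so the numbers were not taken to pair the libraries. With the replicate block the differences were -4.15 points (exact sign-flip p = 0.5), -178 peaks (p = 1) and -14.2 points (p = 0.5), and 0.5 is the smallest p that 2 pairs can give. The main limits are 1 H3K27ac library, 2 GR libraries per time, no read depth and lists of unequal length.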
